A study of Homo sapiens with 6 samples.

Results

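The genes described here encode 7 transcription factors and 1 pseudokinase: ATF4, ATF5, ATF3, DDIT3 (the gene of CHOP), CEBPA, CEBPB, CEBPG and TRIB3. They were taken by symbol from the deposited expression table, and all 8 were found among its 11911 genes. The choice of genes was made with earlier results of these data known. RNA was sequenced from the RS4;11 cell line, which derives from acute lymphoblastic leukemia of B-cell precursors and carries the KMT2A::AFF1 fusion. One arm is labelled as having asparagine (3 libraries) and the other as lacking it (3 libraries), and the series dates RNA extraction to 16 hours after withdrawal. Every sample, those of the asparagine arm included, lists the same asparagine-free medium with dialyzed serum, so the serum of the asparagine arm is not settled by the labels. The table's column names abbreviate the depleted arm in a way that could also stand for asparaginase, an enzyme that breaks down asparagine. Separate cultures are not stated for the libraries within an arm, and the p-values below measure the spread between libraries only.

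A shortage of an amino acid leaves uncharged tRNA in the cell, which activates the kinase GCN2. GCN2 phosphorylates the initiation factor eIF2, and this lowers general protein synthesis while favouring translation of the ATF4 and ATF5 messages. ATF4 is a basic leucine zipper (bZIP) protein that binds DNA as a dimer, often with a C/EBP partner, and ATF3, DDIT3, TRIB3, CEBPB and CEBPG are among the genes it is known to induce. CEBPA is better known for driving granulocyte differentiation.

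Values are normalized CPM (read counts scaled for library depth) as deposited, and the libraries held 29971364 to 51127073 reads in the table. All 15 B-cell precursor markers were in the table, with summed levels of 5660 to 6081 CPM with asparagine and 4326 to 5447 CPM without it. Of 8 myeloid markers, CSF1R and ITGAM were in the table, summing to 32.1 to 33.3 CPM with asparagine and 17.5 to 31.0 CPM without it, and MPO, ELANE, LYZ, CD14, S100A8 and S100A9 were not. None of 4 T cell or 3 erythroid markers was in the table, and of 5 stromal and epithelial markers COL1A1 alone was, at 3.61 to 4.47 CPM with asparagine and 0.938 to 2.35 CPM without it. The part of these marker differences in the results was not tested. In such bulk RNA, fewer cells of a type and less RNA per cell cannot be told apart. The first depleted library, called depleted library 1, differed from depleted libraries 2 and 3 in a way that followed the GC content of transcripts. Of the 3, it correlated best with the libraries having asparagine (r = 0.927 to 0.928, against 0.845 to 0.882 for libraries 2 and 3). Changes below are given as deposited, with the value after a correction for GC content where that ends or makes a call for a named gene.

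Of the 8 genes, 6 were higher without asparagine (TRIB3, ATF3, DDIT3, CEBPB, ATF5 and CEBPG), CEBPA was lower, and ATF4 did not pass the threshold (limma, Benjamini-Hochberg adjusted p under 0.05). Among all 11892 genes tested, 25.1% were called higher and 26.2% lower. The median log2 fold change was 2.33 over the 8 genes and 0.01 over all genes tested. With the GC correction 7 of the 8 were higher and CEBPA was lower, beside 35.2% of 11333 genes called higher and 34.3% called lower.

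**Figure D1:**
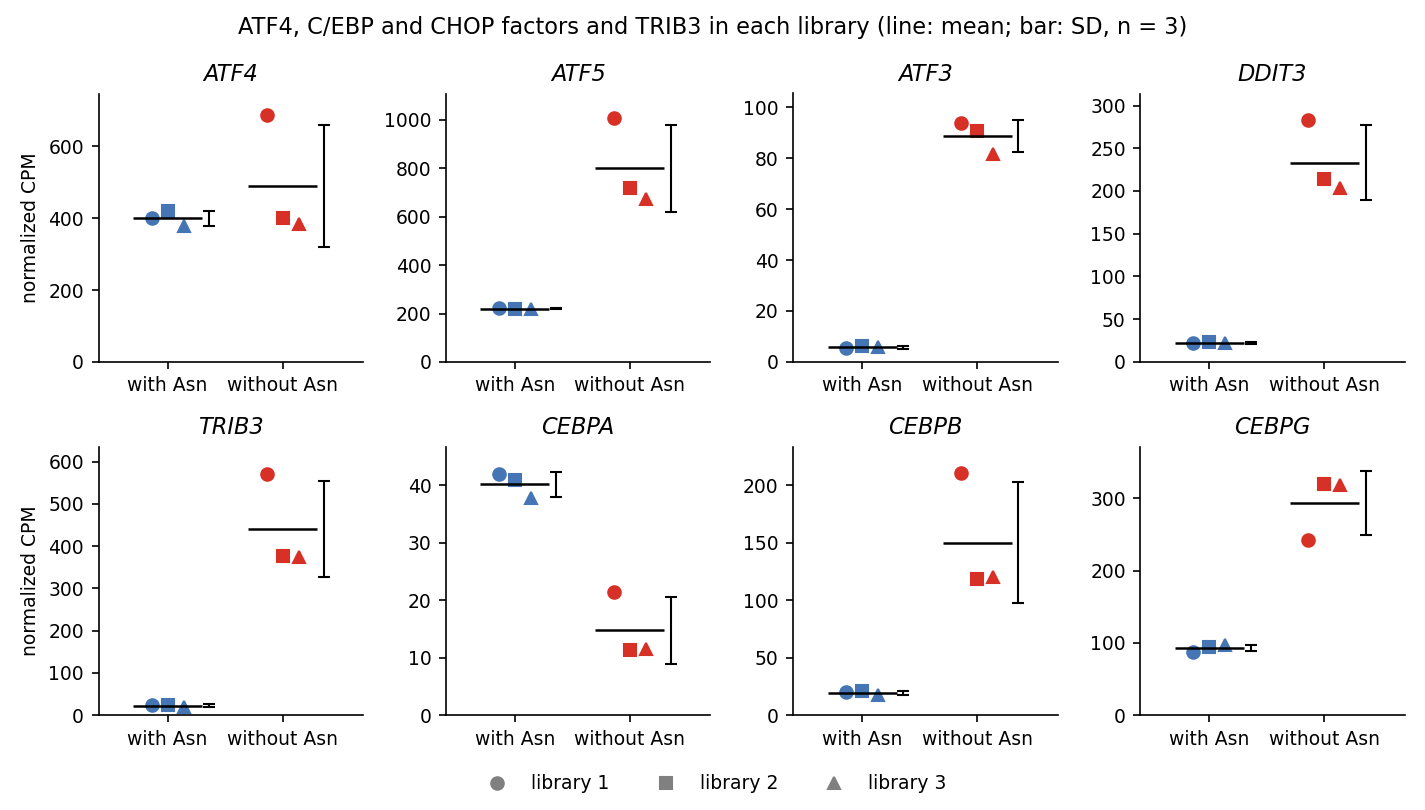
Normalized CPM of each of the 8 genes (vertical axes, each from 0 and scaled to its gene) in the 3 libraries with asparagine and the 3 without it. Symbols mark the library number, lines the means and bars the SD. ATF4 is the gene whose groups overlap, at 378 to 419.8 CPM with asparagine and 383 to 686 CPM without it.

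ATF4 lies on chromosome 22 (GRCh38, 39519695 to 39522685, plus strand). Its RNA stood at 399.8, 419.8 and 378 CPM in the 3 libraries with asparagine, and at 686, 400.2 and 383 CPM in depleted libraries 1, 2 and 3. Depleted library 1 was high, whereas the other two lay inside the range seen with asparagine. The means were 399 ± 21.0 CPM and 490 ± 170.5 CPM (SD, n = 3 each), and the fitted log2 fold change was 0.24 (SE 0.23, 95% interval -0.30 to 0.79, limma adjusted p = 0.397). Leaving out depleted library 1 gave -0.03 (limma adjusted p = 0.715). After the GC correction it was 0.55 (95% interval 0.30 to 0.80, limma adjusted p = 0.00291), and 0.42 with that library also left out (limma adjusted p = 8.62e-06). The annotation holds 4 ATF4 pseudogenes, and how reads shared with them were counted is not given in the sources used here.

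ATF5, a bZIP factor whose message carries upstream reading frames like that of ATF4, lies on chromosome 19 (49928702 to 49933935, plus strand). It was at 222, 219.7 and 220.0 CPM with asparagine and at 1007, 716 and 675 CPM without it. The libraries with asparagine were nearly identical, and each depleted library lay well above them. ATF5 rose 3.62-fold (log2 fold change 1.83, SE 0.17, limma adjusted p = 0.000457). Its exons share 626 of 2954 bases with exons of NUP62, a nuclear pore gene on the other strand, whose level fell from 288 to 62.7 CPM (log2 fold change -2.20, limma adjusted p = 0.000252). It also shares 75 bases with IL4I1, which rose from 1.53 to 7.69 CPM (limma adjusted p = 0.00405). The strand setting of the counting is not given, so reads in these shared stretches, and in those named below for DDIT3 and CEBPB, cannot be told apart.

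ATF3, a stress-induced bZIP factor that acts largely as a repressor, lies on chromosome 1 (212565334 to 212620777, plus strand). With asparagine it was at 5.29, 6.42 and 5.76 CPM. Without asparagine it stood at 93.7, 90.6 and 81.6 CPM. The 3 depleted libraries were close to each other and far above the others, a 15.2-fold rise (log2 fold change 3.72, SE 0.13, limma adjusted p = 3.03e-05). The GC correction left the change at 3.76. The lowest ATF3 value rests on 188 reads.

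DDIT3 encodes CHOP, a C/EBP-like protein that pairs with C/EBP factors and is linked to cell death after prolonged stress. It lies on chromosome 12 (57516588 to 57521737, minus strand). Its values were 22.3, 23.5 and 21.6 CPM with asparagine and 283, 213 and 203 CPM without it. All 3 depleted libraries were high, library 1 the most, and the rise was 10.4-fold (log2 fold change 3.31, SE 0.16, limma adjusted p = 5.17e-05). DDIT3 overlaps MARS, the methionyl-tRNA synthetase gene of the opposite strand, over 355 of its 1307 exon bases. MARS rose from 294 to 641 CPM (2.18-fold, limma adjusted p = 0.00174). A further 58 bases are shared with MBD6, which rose from 106 to 165 CPM (limma adjusted p = 0.0338). AC022506.1, a gene on the same strand as DDIT3 that shares 105 of its exon bases, was not in the table under that name.

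TRIB3 is a Tribbles pseudokinase that is induced by ATF4 and CHOP and binds ATF4 and the kinase AKT. It lies on chromosome 20 (362835 to 397559, plus strand). With asparagine it was at 24.0, 24.8 and 19.1 CPM, and without it at 572, 377 and 374 CPM. No depleted library came near the others. The 19.4-fold rise had the highest log2 fold change of the 8 genes both as deposited (4.20, SE 0.20, limma adjusted p = 5.56e-05) and after the GC correction (4.80).

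CEBPB, a C/EBP factor of stress and inflammatory responses, lies on chromosome 20 (50190734 to 50192689, plus strand). It stood at 20.0, 20.7 and 17.5 CPM with asparagine and at 211, 119 and 120.1 CPM without it. Depleted library 1 was well above the other depleted libraries, and all 3 were above those with asparagine. The rise was 7.73-fold (log2 fold change 2.84, SE 0.24, limma adjusted p = 0.000364). The antisense gene CEBPB-AS1, with which CEBPB shares 231 of 1956 exon bases, rose from 0.896 to 11.8 CPM (limma adjusted p = 4.68e-05).

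CEBPG and CEBPA are neighbours on chromosome 19, 70.8 kb apart, and moved in opposite directions. CEBPG, a short C/EBP protein that acts mainly as a dimer partner and is known to pair with ATF4, lies at 33373330 to 33382686 on the plus strand. It stood at 88.1, 94.9 and 96.6 CPM with asparagine and 243, 319.6 and 319 CPM without it. Depleted library 1 was the lowest of the depleted libraries here, but above every library with asparagine. CEBPG rose 3.15-fold (log2 fold change 1.64, SE 0.14, limma adjusted p = 0.000424), and by 1.18 on the log2 scale after the GC correction (limma adjusted p = 2.54e-05).

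CEBPA lies at 33299934 to 33302564 on the minus strand. Its values were 41.9, 40.8 and 37.7 CPM with asparagine and 21.4, 11.4 and 11.4 CPM without it. All depleted libraries were low, library 1 the least. CEBPA fell to 0.367 of its level with asparagine (log2 fold change -1.44, SE 0.25, 95% interval -2.03 to -0.86, limma adjusted p = 0.00397). The GC-corrected change was -0.70 (95% interval -0.87 to -0.53, limma adjusted p = 0.000119), less than that as deposited. Its 65.9% GC content is among the highest of the 8 genes. The antisense genes AC008738.3 and AC008738.5, annotated over 659 and 482 of the 2631 exon bases of CEBPA, were not in the table under those names.

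The sequences before the start sites were read for letters that ATF4 and C/EBP dimers are known to bind. RefSeq windows of GRCh38.p14, running from 250 bases before to 50 after a start site, were matched for all 8 genes (17 windows). The motif TGATGNAA, the core of the composite C/EBP-ATF element, was sought on both strands and occurred in 2 of these windows, 1 of ATF3 and 1 of CEBPG, and in 3.62% of all 35116 windows. The exon-free stretches of these windows are shown, with the motif in capitals, beside that of CEBPA, the neighbour of CEBPG that fell. The motif is absent from the CEBPA stretch, and also from every window of TRIB3, DDIT3, CEBPB and ATF5, which rose. Its first base is at -191 from 1 ATF3 start site (chr1:212565157-212565333, plus strand). In CEBPG it is at -42 from 1 start site, within the first intron of a longer annotated transcript (chr19:33373896-33374112, plus strand). Each of these genes has another window, at a different start site, without the motif (from chr1:212614768 for ATF3 and chr19:33373459 for CEBPG). The CEBPA stretch is chr19:33302565-33302784, minus strand.
CEBPG: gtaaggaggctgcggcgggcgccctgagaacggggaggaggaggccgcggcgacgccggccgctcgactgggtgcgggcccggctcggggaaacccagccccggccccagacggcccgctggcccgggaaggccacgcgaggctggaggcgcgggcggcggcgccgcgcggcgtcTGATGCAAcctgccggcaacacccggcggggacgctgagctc
ATF3: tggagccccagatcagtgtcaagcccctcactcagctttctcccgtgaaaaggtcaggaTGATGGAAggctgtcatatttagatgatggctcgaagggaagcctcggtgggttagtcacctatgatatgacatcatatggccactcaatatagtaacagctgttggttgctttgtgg
CEBPA: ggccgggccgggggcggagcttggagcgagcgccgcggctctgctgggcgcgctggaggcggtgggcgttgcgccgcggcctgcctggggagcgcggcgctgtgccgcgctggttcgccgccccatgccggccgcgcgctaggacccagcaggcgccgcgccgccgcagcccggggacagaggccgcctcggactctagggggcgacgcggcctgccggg

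The letters TGACGTCA of the cyclic AMP response element were in no window of the 8 genes and in 1.85% of all windows. TGANTCA, the AP-1 element, was in 3 of the 17 windows, those of ATF5 and DDIT3, and in 7.71% of all windows. TTGCNNAA, a C/EBP element, was in 3 of the 17, of ATF3 and ATF5, and in 10.5% of all windows. TATAAA was in 5 of the 17, of ATF3, ATF4, CEBPA and CEBPB, and in 11.5% of all windows. The windows of DDIT3 overlap and hold the same TGANTCA site, and those of ATF4 overlap and hold the same TATAAA site. These motifs were searched on both strands, and TGANTCA and TGATGNAA share their first letters. A match is only a run of letters, and windows near the start site leave out elements elsewhere in a gene.

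Depleted library 1 was the highest of the 3 depleted libraries for 7 of the 8 genes and the lowest for CEBPG. Its log2 gap to the mean of libraries 2 and 3 was 0.85 for CEBPA, 0.81 for CEBPB, 0.81 for ATF4, 0.61 for TRIB3, 0.53 for ATF5, 0.44 for DDIT3, 0.12 for ATF3 and -0.39 for CEBPG. CEBPG has the lowest GC content of the 8 (41.9%) and CEBPB the highest (66.2%). Over all genes the median gap went from -0.81 in the fifth of genes lowest in GC to 0.79 in the fifth that is highest. After the GC correction the gap was -0.09 for CEBPA, -0.14 for CEBPB, -0.16 for TRIB3, -0.26 for ATF5 and 0.01 for ATF3. It was 0.39 for ATF4, 0.34 for DDIT3 and 0.23 for CEBPG. The gap was thus smaller in size for all 8 genes once the trend with GC content was removed. For each of the 8 genes the correction moved depleted libraries 2 and 3 more than depleted library 1. In log2 units above the mean with asparagine, CEBPB went from 3.38 to 3.50 in library 1. It went from 2.56 to 3.60 in library 2 and from 2.57 to 3.66 in library 3.

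**Figure D2:**
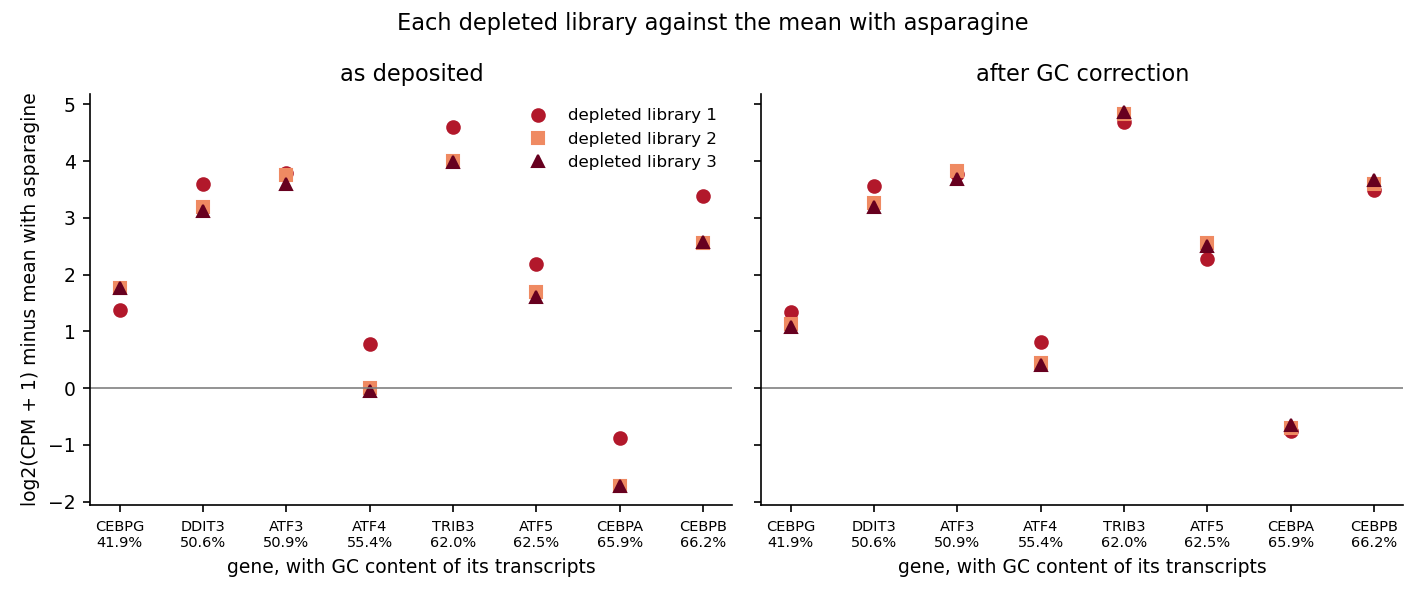
Each depleted library's log2(CPM + 1) minus the mean of the libraries with asparagine (vertical axis), for the 8 genes ordered by the GC content of their transcripts, as deposited (left) and after the GC correction (right). As deposited, depleted library 1 is the highest for all genes but CEBPG, and for CEBPB its gap to the other two is 0.81 as deposited and -0.14 after the correction.

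**Figure D3:**
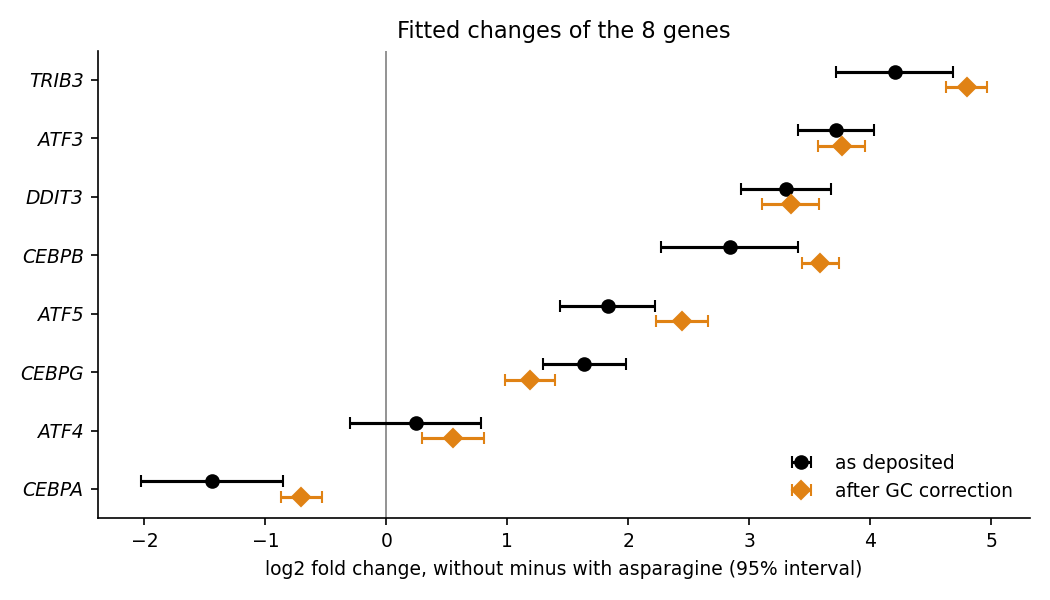
Fitted log2 fold change without minus with asparagine (horizontal axis) for the 8 genes, as points with 95% intervals, as deposited (black) and after the GC correction (orange). The ATF4 interval runs from -0.30 to 0.79 as deposited and from 0.30 to 0.80 after the correction.

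Deposited levels of different genes were compared per kilobase of transcript, with each gene's median protein-coding transcript length. With asparagine the order was ATF5 (266 CPM per kb), ATF4 (209), DDIT3 (24.3), CEBPG (23.4), TRIB3 (17.4), CEBPA (15.3), CEBPB (9.92) and ATF3 (7.57). The ranges of DDIT3 and CEBPG overlapped, as did those of TRIB3 and CEBPA. Without asparagine it was ATF5 (965), TRIB3 (339), ATF4 (256), DDIT3 (253), ATF3 (115), CEBPB (76.6), CEBPG (73.8) and CEBPA (5.61). Here the ranges of TRIB3, ATF4 and DDIT3 all overlapped with each other, and that of CEBPB overlapped with ATF3 and with CEBPG. The transcript length bears on this order: with the longest transcript, ATF4 (198 CPM per kb) came before ATF5 (107) with asparagine. By the same lengths TRIB3 was at 176 CPM per kb without asparagine, after ATF5 (386), ATF4 (243) and DDIT3 (219), but its range overlapped with those of ATF4 and DDIT3, and that of ATF4 with ATF5 and DDIT3. CEBPA was the lowest of the 8 without asparagine by both lengths.

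The make-up of C/EBP family RNA, for which no test was made, differed between the arms. The summed level of CEBPA, CEBPB, CEBPG and CEBPE was 54.2 ± 2.30 CPM per kb with asparagine and 160.1 ± 20.5 CPM per kb without it (SD, n = 3 each). CEBPA made up 29.6%, 27.4% and 27.6% of this sum with asparagine and 4.43%, 2.92% and 2.93% without it. CEBPB made up 19.0%, 18.7% and 17.2% with asparagine and 58.6%, 41.0% and 41.4% without it. The CEBPG share was 41.0%, 42.2% and 46.7% with asparagine and 33.2%, 54.1% and 54.1% without it, so its ranges overlapped as deposited. The GC-corrected CEBPG share was 53.1%, 55.7% and 52.4% with asparagine and 40.4%, 35.6% and 34.2% without it, with no overlap. The corrected CEBPB share was 14.9%, 14.1% and 15.2% with asparagine and 52.3%, 57.4% and 59.2% without it, and that of CEBPA 21.0% to 24.6% and 3.93% to 4.29%. Thus, as deposited and GC-corrected, CEBPA had a higher share than CEBPB in every library with asparagine, and a lower share in every depleted library. CEBPE, a factor of late granulocyte differentiation, held 8.60% to 11.7% with asparagine and 1.55% to 3.69% without it, while its own change did not pass (log2 fold change -0.53, limma adjusted p = 0.235, and 0.10 with the GC correction). CEBPZ, named for the family but not a bZIP protein, was left out of the sum, and CEBPD was not in the table.

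**Figure D4:**
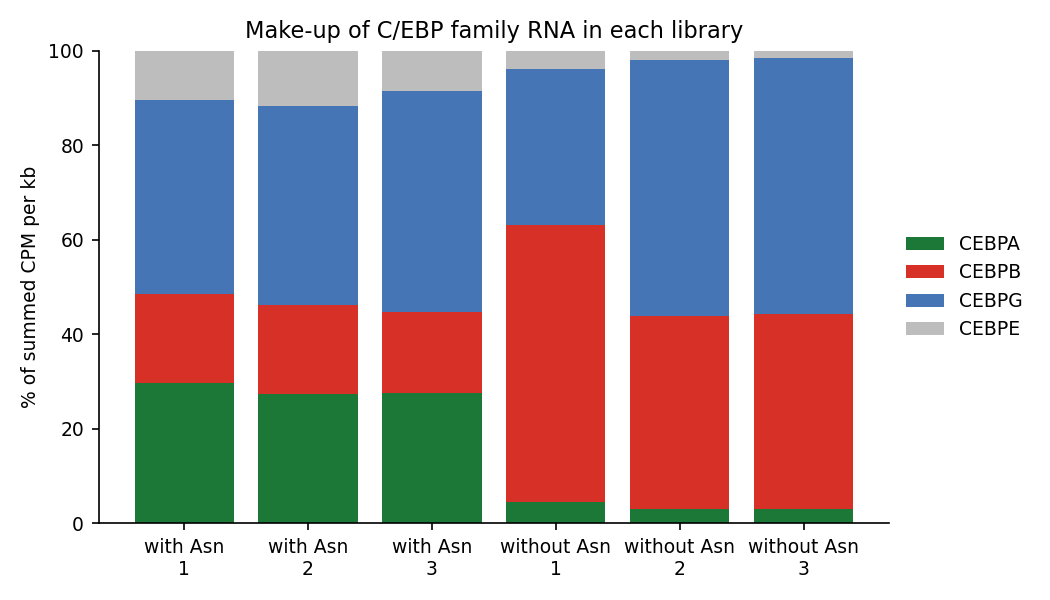
Share (vertical axis, %) of CEBPA, CEBPB, CEBPG and CEBPE in their summed CPM per kb as deposited, 1 bar per library. The CEBPA share lies between 27.4% and 29.6% with asparagine and between 2.92% and 4.43% without it, and the CEBPB share in depleted library 1 (58.6%) is above those of the other depleted libraries (41.0% and 41.4%).

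Ratios between members within a library do not depend on how that library was scaled, but the trend with GC content bears on them. TRIB3 relative to ATF4 was higher in each depleted library, with a mean log2 ratio per kilobase of -3.59 ± 0.14 with asparagine and 0.43 ± 0.12 without it (SD, n = 3 each), a 16.2-fold difference. Relative to ATF4, ATF3 was 12.9-fold and ATF5 3.01-fold higher without asparagine. DDIT3 was 3.29-fold higher relative to CEBPG and 1.38-fold higher relative to CEBPB, and CEBPB was 2.39-fold higher relative to CEBPG. The libraries of the arms did not overlap in any of these 6 ratios as deposited. Each gave p = 0.10 in a two-sided exact permutation test, and 0.10 adjusted over the 6, which is the smallest p that 3 against 3 libraries allow. With the GC correction, DDIT3 relative to CEBPB turned to a log2 difference of -0.28, with overlapping arms (two-sided exact permutation p = 0.30), so its direction depends on that correction. CEBPB was then 5.59-fold and DDIT3 4.62-fold higher relative to CEBPG, and the log2 differences relative to ATF4 were 4.32 for TRIB3, 1.90 for ATF5 and 3.43 for ATF3, with no overlap in these 5.

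The genes whose profile over the 6 libraries was most like that of each member were found among 10871 genes whose higher group averaged 5 CPM or more, as the root mean square (RMS) difference in log2 units. For TRIB3 these were PPP1R15A (0.08), GDAP1L1 (0.11) and TREML2 (0.12). PPP1R15A encodes GADD34, the stress-induced subunit of the eIF2 phosphatase. For DDIT3 they were TOX2 (0.14), CHAC1 (0.14) and BAIAP2L1 (0.17), CHAC1 being an enzyme that degrades glutathione. For ATF3 they were WARS (0.10), DPYSL3 (0.11) and TNFRSF10B (0.11), which encode a tRNA synthetase, a cytoskeletal protein and the death receptor DR5. CEBPB had SPNS3 (0.10) and the bZIP factor JDP2 (0.10). The nearest genes were closer for the members with smaller changes. CEBPG was matched by TRAF3IP2-AS1 (0.04), IDH1 (0.05) and IARS (0.05), and ATF5 by C1orf115 (0.03), NFE2L1 (0.04) and KIF21B (0.08). CEBPA was matched by RABL6 (0.03), POLD2 (0.03) and CECR5 (0.04), and ATF4 by PLEKHF1 (0.03), CCDC9 (0.04) and FAM86HP (0.04). These differences include the shared shift of depleted library 1.

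Other bZIP factors were counted to place the 7 bZIP members among their relatives. Of 15 other C/EBP and CREB/ATF factors tested, 7 were higher, 2 were lower and 6 did not pass (all genes: 25.1% higher, 26.2% lower). Their median log2 fold change was 0.83. The 15 include CEBPZ, which is not a bZIP protein and did not pass (log2 fold change -0.05, limma adjusted p = 0.916). With the GC correction CEBPZ was called lower (-0.58, limma adjusted p = 0.00628). Those higher included ATF6 (29.8 to 97.0 CPM, log2 fold change 1.66, limma adjusted p = 0.000752), a sensor of endoplasmic reticulum (ER) stress. XBP1, another factor of ER stress, went from 348 to 825 CPM (log2 fold change 1.24), CREM from 17.0 to 46.6 CPM (1.40), CREBL2 from 18.7 to 57.5 CPM (1.55) and CREB3L2 from 126 to 289 CPM (1.19). The 2 lower were CREB3L4 (log2 fold change -0.85) and CREB3 (-0.57, or -0.20 with the GC correction). The GC-corrected counts were 8 higher and 4 lower (all genes: 35.2% and 34.3%).

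Of 17 bZIP factors from other families, 8 were higher, 5 were lower and 4 did not pass (all genes: 25.1% higher, 26.2% lower). Their median log2 fold change was 0.68. JUN, an AP-1 subunit that pairs with ATF factors, went from 4.46 to 216 CPM (48.3-fold, log2 fold change 5.26, limma adjusted p = 5.14e-05), more than any of the 8 genes by the fitted value. JDP2, a JUN partner that binds many bZIP proteins, went from 5.98 to 49.6 CPM (log2 fold change 2.83, limma adjusted p = 0.000246). NFE2L1, a factor that raises proteasome genes, rose by 1.82 and NFIL3 by 1.73 on the log2 scale. The 5 lower were JUNB (-1.53), DBP (-1.38), MAFK (-1.19), BATF (-1.01) and TEF (-0.68). Their GC-corrected values were smaller in size, at -0.82, -0.72, -0.51, -0.61 and -0.31, and TEF then did not pass (limma adjusted p = 0.0538). JUND, BATF3, MAFF and MAFG did not pass as deposited, at 0.36, 0.74, -0.30 and 0.07. With the GC correction JUND (1.26), BATF3 (1.38) and MAFG (0.47) were called higher, which made 11 higher and 4 lower (all genes: 35.2% and 34.3%). JUN and JUNB moved in opposite directions in both fits.

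**Figure D5:**
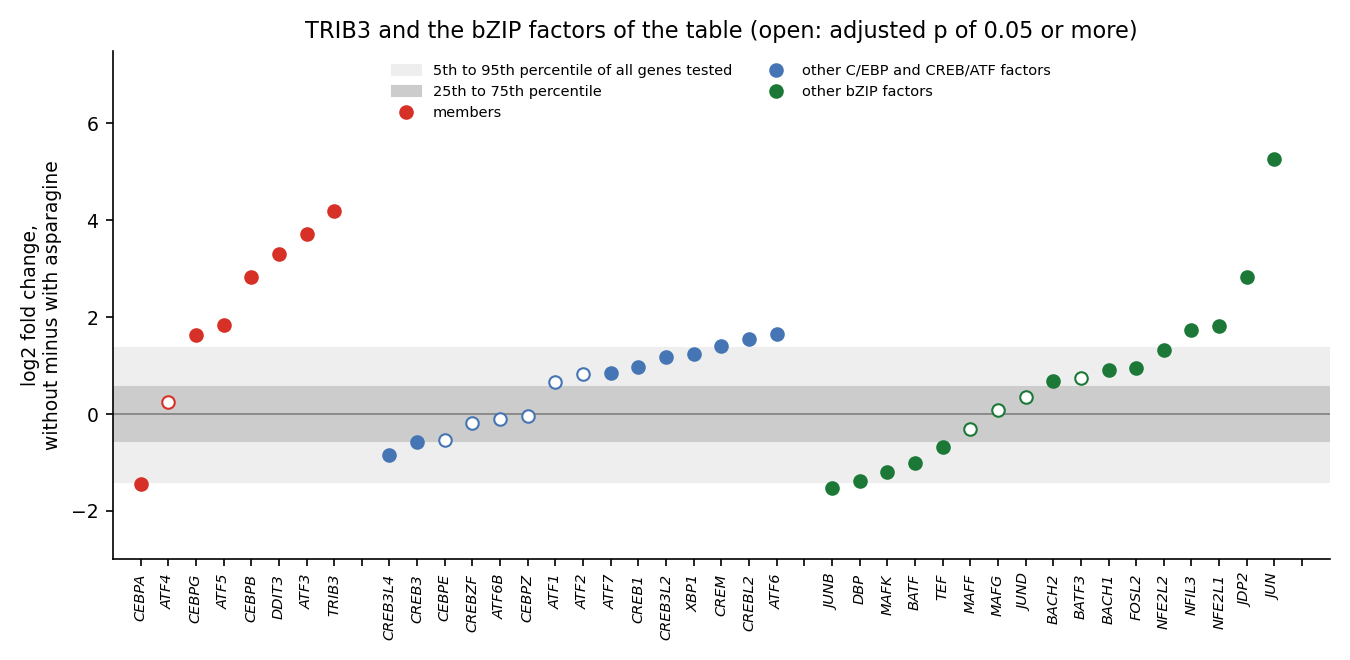
Fitted log2 fold change without minus with asparagine (vertical axis) for the 8 genes (red), 15 other C/EBP and CREB/ATF factors (blue) and 17 other bZIP factors (green), open where the limma adjusted p is 0.05 or more. Grey bands show percentiles over all genes tested. TRIB3 (4.20) and ATF3 (3.72) lie below JUN (5.26) and above JDP2 (2.83).

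The relatives of TRIB3 moved in both directions. Of 6 Tribbles relatives and partners tested, 2 were higher and 3 lower, beside 25.1% and 26.2% of all genes tested. Their median log2 fold change was -0.26. The relative TRIB1 fell from 39.6 to 30.8 CPM (log2 fold change -0.35, limma adjusted p = 0.0454), and STK40, a related pseudokinase, rose from 103 to 168 CPM (0.67, limma adjusted p = 0.0267). AKT1, a kinase that Tribbles proteins bind, fell by 1.25 on the log2 scale, and by 0.76 with the GC correction. AKT2, another such kinase, was called lower as deposited (-0.61) but did not pass with the GC correction (-0.10, limma adjusted p = 0.0703). RFWD2, the ubiquitin ligase COP1, was at 57.5 and 51.2 CPM (log2 fold change -0.16, limma adjusted p = 0.297). After the GC correction, which RFWD2 could not enter, 2 of 5 were higher and 2 lower (all genes: 35.2% and 34.3%).

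Genes known to be induced through ATF4 were mostly higher. Of 32 tested, 22 were higher, 1 was lower and 9 did not pass (all genes: 25.1% higher, 26.2% lower). Their median log2 fold change was 1.50. With the GC correction 27 were higher and 3 lower (all genes: 35.2% and 34.3%). INHBE, an activin subunit, rose from 0.622 to 60.8 CPM (log2 fold change 5.22), FAM129A (NIBAN1) from 0.289 to 43.7 CPM (5.11) and the secreted hormone STC2 from 1.01 to 42.8 CPM (4.48). SLC7A11, the cystine transporter, rose from 9.88 to 247 CPM (4.39) and SESN2, an inhibitor of mTORC1, from 16.6 to 253 CPM (3.82). ALDH18A1, an enzyme of proline synthesis, fell from 244 to 112 CPM (-1.12, limma adjusted p = 0.000568). ASNS, the asparagine synthetase and a textbook ATF4 target, was chosen for mention after its values were seen. It stood at 11.2 CPM with asparagine and 8.77 CPM without it (log2 fold change -0.33, limma adjusted p = 0.0943), and the GC-corrected change of -0.63 was called lower (limma adjusted p = 0.00187).

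The cytosolic aminoacyl-tRNA synthetases, many of them ATF4 targets, moved in both directions. Of 18 tested, 11 were higher, 4 lower and 3 did not pass (all genes: 25.1% higher, 26.2% lower). Their median log2 fold change was 0.96. WARS rose most, from 181 to 2278 CPM (log2 fold change 3.65, limma adjusted p = 2.73e-05), followed by GARS (1.68), IARS (1.57) and CARS (1.49). The 4 lower were VARS (-1.45), KARS (-0.98), QARS (-0.79) and HARS (-0.70), and LARS (0.36), DARS (0.16) and RARS (-0.49) did not pass. With the GC correction RARS was called lower (-0.57, limma adjusted p = 0.0055). NARS, which charges the tRNA of asparagine, was chosen for mention for that role and rose by 1.33 on the log2 scale (limma adjusted p = 0.0019).

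Of 10 genes known to be regulated by CHOP, 5 were higher and 2 lower (all genes: 25.1% and 26.2%). Their median log2 fold change was 0.89. The higher genes were PPP1R15A (25.5 to 462 CPM, log2 fold change 4.11), TNFRSF10B (5.37 to 75.6 CPM, 3.59), CHAC1 (7.14 to 86.6 CPM, 3.38), PMAIP1 (2.14), which encodes the death protein NOXA, and GADD45A (0.89). BCL2L11, which encodes the death protein BIM, fell by 0.72 on the log2 scale (limma adjusted p = 0.00949), and DOHH fell by 1.00 (limma adjusted p = 0.046). The GC-corrected value for DOHH was -0.19 and did not pass. ERO1A (-0.21), BBC3 (0.89) and BCL2 (0.07) did not pass as deposited, BCL2 being a survival gene that CHOP is known to lower. All 3 passed with the GC correction, BBC3 higher (1.57) and ERO1A (-0.51) and BCL2 (-0.18, limma adjusted p = 0.0281) lower.

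Upstream of ATF4, 5 of 12 genes for eIF2 kinases, eIF2 and its phosphatase were higher and 2 lower (all genes: 25.1% and 26.2%). Their median log2 fold change was 0.17. With the GC correction 5 were higher and 6 lower (all genes: 35.2% and 34.3%), and the median was -0.19. EIF2AK4, the gene of GCN2, was at 110 and 93.4 CPM (log2 fold change -0.24, limma adjusted p = 0.141), and the GC-corrected value of -0.43 was called lower (limma adjusted p = 0.000454). GCN1, its activator, fell by 0.96 on the log2 scale, or by 0.61 with the GC correction. EIF2AK1 was the other lower gene (-0.64). The 5 higher were PPP1R15A (4.11), PPP1CB (1.12), DNAJC3 (0.97), EIF2AK3 (0.78) and PPP1R15B (0.72). PPP1R15A is also counted among the CHOP-regulated genes above. Of 16 genes whose products bind, modify or degrade ATF4, ATF5 or C/EBP proteins, 7 were higher and 4 lower (median 0.13), or 7 and 7 with the GC correction. Among them EP300, an acetyltransferase that binds ATF4, rose by 1.11, while CDK5 fell by 1.71 and CDK2 by 1.11 on the log2 scale. CDK6 rose by 1.05 (limma adjusted p = 0.0436), with libraries of the arms overlapping.

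Chaperone and protease genes of the mitochondrial stress response are known to be regulated by ATF5. Of 12, 3 were higher and 6 lower (all genes: 25.1% and 26.2%), with a median log2 fold change of -0.35. HSPE1 fell from 38.5 to 5.77 CPM (-2.53) and HSPD1 from 589 to 192 CPM (-1.61), the chaperonin pair of the mitochondrial matrix. HSPA9 rose by 0.90, LONP1 by 0.77 and YME1L1 by 0.73 on the log2 scale. Of 17 ER genes of the ATF6 and XBP1 arm, 6 were higher and 7 lower (median -0.16). SEL1L (2.23), DNAJB9 (2.25) and HERPUD1 (2.12) rose, while SDF2L1 (-2.61) and CALR (-1.82) fell. Of 18 listed genes that C/EBP factors switch on in myeloid cells, 6 were tested, of which 2 were higher and 4 did not pass (median -0.11, or 0.41 with the GC correction and 3 higher). ANPEP rose from 1.93 to 11.0 CPM and GFI1, a repressor, from 46.4 to 88.0 CPM, while CSF1R, CEBPE, SPI1 and ITGAM did not pass as deposited, at -0.51, -0.53, -0.11 and -0.12. SPI1 turned to 0.62 with the GC correction and was called higher (limma adjusted p = 4.49e-05).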

How the data were processed

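RNA-seq libraries of RS4;11 cells, 3 per arm, were analysed. The build GRCh38 and the tools STAR, FastQC and featureCounts (Subread) are named in the submitters' processing notes. Their versions, the annotation, the strand setting and the scaling method are not given in these sources. The deposited signal is normalized CPM per gene, with column totals of 918783 to 1031234, so the divisor was not the library total alone. Columns were matched to samples by arm and replicate number. Dividing by 1 step per library gave whole reads for 100% of values (tolerance 1e-06), and 3 reads equal 0.0598 to 0.092 CPM.

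Values were fitted as log2(CPM + 1) with limma 3.58.1 in R 4.3.3, with the arm as the only term, an intensity trend and Benjamini-Hochberg adjustment of two-sided p-values over 11892 genes (at least 1 CPM in at least 3 libraries), at a threshold of 0.05. Folds are ratios of mean CPM. Log2 fold changes are on the log2(CPM + 1) scale, which understates changes of low genes. The GC correction removed, per library, a lowess trend (span 0.3) of deviations on transcript GC content from GENCODE 29 (11352 of 11911 genes matched). Promoter letters came from RefSeq (GRCh38.p14). On simulated data of 3 against 3 libraries over 11892 genes with 200 changed, the fit recovered 57% of the 2-fold and 88% of the 4-fold changes, with 3.97% false calls. The simulated noise was drawn independently per gene and library and held no GC trend, so these rates need not hold for the data.

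The members and lists were chosen with earlier results of these data known. Named are all 8 members, every gene of a kind with 5 or fewer in a list or otherwise up to 5 with the largest changes past the threshold at 5 CPM or more in the higher group, and the 3 genes nearest to each member in profile. Not every gene this rule admits is printed, some items are not reported here, and others are marked as chosen after their values were seen. Alternatives were other pseudocounts, filters, scalings, moderation, voom weights, the replicate number as a block, the GC correction, a threshold of 0.01 and leaving out each library. The comparison of protein sequences was not run.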

Additional observations from a re-analysis of the deposited data

How the results depend on the processing

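Of 176 member results (22 alternatives for each of 8 genes), 172 kept their direction and their side of the threshold. The other 4 all concern ATF4: 0.55 with the GC correction (limma adjusted p = 0.00291), 0.55 with the GC correction and the replicate block (0.00608), 0.42 with the GC correction when depleted library 1 is also left out (8.62e-06), and -0.0274 without depleted library 1 alone (0.715). Leaving out 1 library at a time gave -0.03 to 0.39 for ATF4. Of the changes that kept their call, that of CEBPA ranged from -1.73 to -0.67 and that of CEBPG from 1.11 to 1.79. Scaling by column totals put the median of all genes at 0.14 in place of 0.01. The cause of these shifts was not tested. Correlations of same-numbered deviations were of mixed sign (0.083, -0.645 and 0.686). With 3 libraries per arm they cannot tell whether same-numbered libraries were paired. The replicate block left 6 members higher and 1 lower, with ATF4 at 0.24 (limma adjusted p = 0.351). The planned tests with count models were not run, since the table was treated as a scaled signal, and voom weights on the recovered reads stood in for them. The GC correction of the 6 ratios and the C/EBP shares was chosen after seeing the data. It turned DDIT3 to CEBPB to -0.2771, and gave 2.2067 for DDIT3 to CEBPG, 2.4838 for CEBPB to CEBPG, 4.3193 for TRIB3 to ATF4 and 1.8981 for ATF5 to ATF4 (log2). Low depth bears on ATF3 and CEBPA the most, with 188 and 372 reads at the least.

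Counts over all genes and lists moved further. At a threshold of 0.01, 1612 genes were higher and 1703 lower. With the GC correction but no depleted library 1, 4486 were higher. Leaving out 1 library gave 1728 to 4812 higher and 1814 to 4913 lower, the most without depleted library 1. Of the C/EBP and CREB/ATF factors, 1 was lower with column totals or at 0.01, 4 with the GC correction (with or without depleted library 1), and 1 to 4 without 1 library. Of other bZIP factors, 2 were lower at 0.01 and 3 to 6 without 1 library. Of Tribbles genes, 1 was higher at 0.01 and 1 to 2 without 1 library, and 1 was lower with column totals or at 0.01 and 1 to 3 without 1 library. Of ATF4 targets, 2 were lower with quantile normalization or the replicate block, 3 with the GC correction (alone, with the block or without depleted library 1), and 1 to 5 without 1 library. Of CHOP targets, 1 was lower with quantile normalization, column totals, robust moderation or at 0.01, 4 with the GC correction but no depleted library 1, and 0 to 2 without 1 library. Of eIF2 genes, 2 were higher at 0.01 and 2 to 8 without 1 library, and 6 were lower with the GC correction (also with the block) and 7 without depleted library 1 as well. Of regulators, 3 were higher at 0.01 and 3 to 8 without 1 library, and 7 were lower with the GC correction (with or without depleted library 1). Of mitochondrial genes, 1 was higher at 0.01 and 1 to 4 without 1 library, and 2 were lower at 0.01 and 2 to 7 without 1 library. Of myeloid genes, 0 to 3 were lower without 1 library.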
